A study of Saccharomyces cerevisiae with 10 samples.

Results

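The HOPS and CORVET deletion strains are the yeast (Saccharomyces cerevisiae) strains that each lack 1 subunit of these tethering complexes, or the Rab GTPase that HOPS binds. They were chosen by gene symbol: PEP3, PEP5, VPS16 and VPS33 for the shared core, VAM6 and VPS41 for HOPS alone, VPS3 and VPS8 for CORVET alone, and YPT7 for the Rab. Of these 9 strains, 8 were measured, out of 4625 strains measured in all. The PEP5 strain (YMR231W) had spots on the array but no value on any of them, so the core is represented by 3 of its 4 strains.

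Tethers bring membranes together before SNARE proteins fuse them. HOPS works at the vacuole, where it binds Ypt7 in its active form, and CORVET works at the endosome with the Rab Vps21. The core of Pep3, Pep5, Vps16 and Vps33 is common to both, and Vps33 is a Sec1/Munc18-type protein that holds SNAREs while they pair. At the ends of the complex Vam6 and Vps41 of HOPS take the places that Vps3 and Vps8 hold in CORVET. Cells without a core subunit lack a normal vacuole, and cells without Vam6, Vps41 or Ypt7 have a fragmented one.

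The strains were part of a pool of haploid deletion mutants in the BY4741 background, in which every strain carries a pair of DNA barcode tags. For each replicate a separate aliquot of the pool was grown and divided. On 4 arrays a portion given 0.4 mM hydrogen peroxide for 1 h (acute) was compared with an untreated portion, and on 6 arrays a portion given 0.1 mM for 45 min before the same high dose (adapted) was compared with an acute portion that had received a sham treatment. All portions then grew for 5 h in fresh medium before DNA was taken, so loss of viability and slower regrowth cannot be told apart. The questions were which strains are sensitive to the acute dose and which lose the benefit of the pretreatment.

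Each value is a log ratio of tag signal, with the acute portion over the untreated one or the adapted portion over the acute one. Strains that became rarer in the more heavily treated portion have values below 0. None of the sources used here states the base of the logarithm, so no fold is derived from it. The deposited sign changes within the array, and spots numbered above 5400 were turned. With those signs the direction is likely, not certain: it rests on the dyes in the labels (Cy5 on the more heavily treated portion of every array) and on the strains without YAP1 and SKN7, transcription factors of the peroxide response, whose acute means were −1.64 ± 0.126 (SE, n = 4) and −1.49 ± 0.139 (SE, n = 4). No array had the dyes exchanged, and an effect of the dye therefore cannot be told apart from one of the treatment. Replicate arrays correlated weakly over strains, with r from −0.108 to 0.511 among the acute arrays and from −0.282 to 0.601 among the adapted ones. For the first tag set alone the lowest r was −0.438 and −0.663, and the highest 0.705 in both groups. For the second tag set alone the lowest r was −0.289 and −0.298, and the highest 0.366 and 0.356. The YAP1 strain was read by the first tag set alone. Its values were −1.64, −1.64, −1.98 and −1.30 on acute replicates 1 to 4, and ran from −0.811 to 0.155 on the adapted arrays. Whether either tag set as a whole runs in the same direction on every array was not settled. For the first set that limits above all the signs of VPS8 and YPT7, the HOPS and CORVET strains read by that set alone. For the second it limits above all VPS33, whose values rest on its second tag (below). Differences between the means of several strains below are therefore read only against the spread over arrays.

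No HOPS or CORVET strain passed the threshold, an unadjusted p under 0.005 in limma's moderated test over all strains, in any comparison. The study set the value 0.005 for its own regularized tests of acute and adaptive fitness. Its use with limma, and for adapted over acute alone, belongs to the present report. In the acute comparison 0 of the 8 strains were called, against 2.66% of all strains called below 0 and 0.951% above 0. In adapted over acute the count was also 0 of 8, against 1.54% below 0 and 1.25% above 0. The adaptive contrast, which subtracts the acute response from the acute over adapted ratio and uses all 10 arrays, called 0 of 8, against 0.173% below 0 and 1.54% above 0. When the threshold was loosened to an unadjusted p under 0.05, 1 strain (YPT7, below 0) was counted in the acute comparison, where the background was 6.90% below 0 and 5.75% above 0. At that looser threshold 0 strains were counted in adapted over acute (background 6.38% below 0 and 4.45% above 0) and 0 in the adaptive contrast (background 1.54% below 0 and 4.0% above 0). With shares of this size, a count of 0 or 1 among 8 strains is near the background. The lowest Benjamini-Hochberg adjusted p among the strains was 0.39, 0.523 and 0.999 in the acute, adapted and contrast comparisons.

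As a group the strains lay near the middle of the pool. Their median acute log ratio was 0.0246, with 4 of 8 below 0, beside a median of −0.0145 over all strains, of which 54.7% were below 0. In adapted over acute the median was −0.000201, with 4 of 8 below 0, beside −0.0134 and 54.6% over all strains. In the adaptive contrast it was −0.0305, with 6 of 8 below 0, beside 0.0241 and 43.2%. The median size of the strain means, whatever their sign, was 0.0838 for these strains and 0.103 for the pool in the acute comparison, and 0.119 and 0.0796 in adapted over acute. None of the 8 strains was on 1 side of 0 on all 6 adapted arrays, where 3.91% of the pool was below 0 throughout and 3.42% above.

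**Figure D1:**
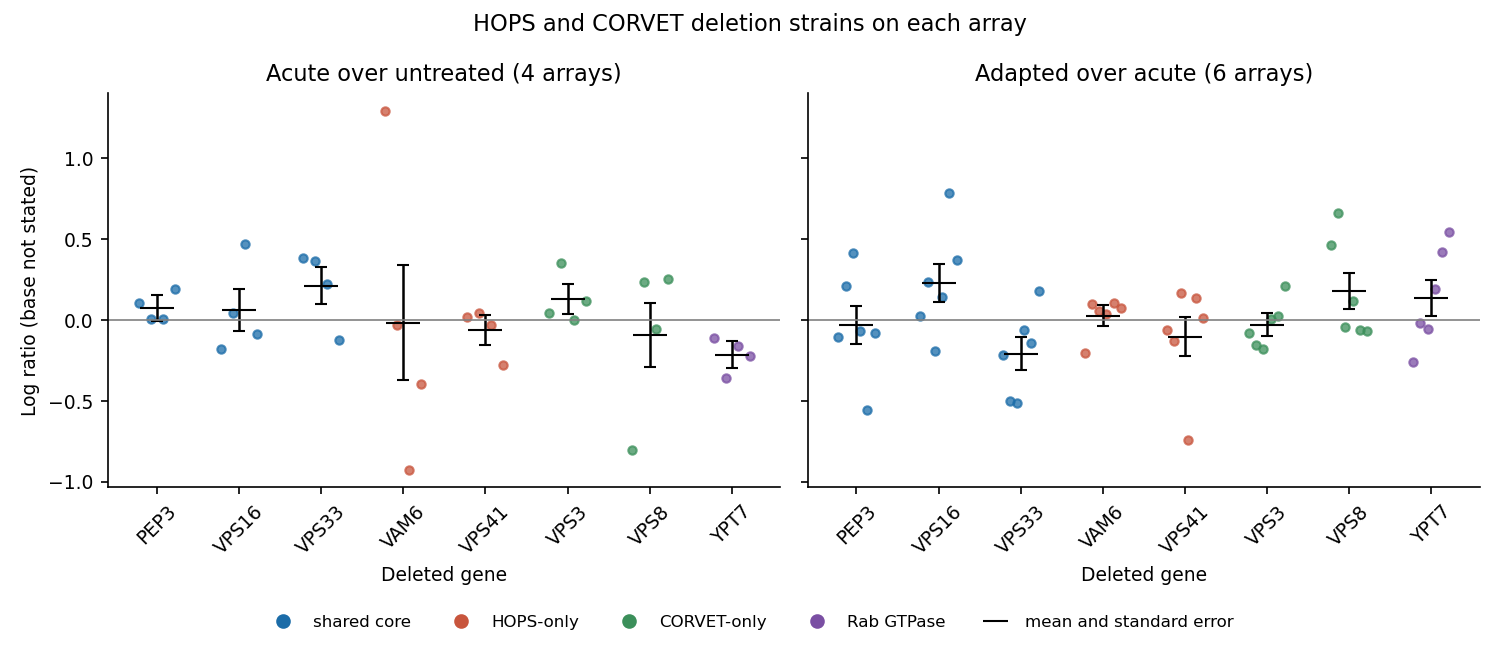
Log ratio (base not stated) of each of the 8 measured HOPS and CORVET deletion strains on the 4 acute over untreated arrays (left) and the 6 adapted over acute arrays (right). Points are arrays, coloured by the role of the deleted gene, and bars are the mean and its moderated standard error. YPT7 is below 0 on all 4 acute arrays, and the 4 acute points of VAM6 run from −0.92 to 1.29.

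Of the shared core, PEP3 (YLR148W) codes for a subunit that helps hold the complexes together. Its strain had acute log ratios of 0.11, 0.0056, 0.0058 and 0.19 on replicates 1 to 4. All 4 lie above 0, which 9.19% of all strains share, and the mean was 0.08 ± 0.081 (SE, n = 4, limma adjusted p = 0.865). The 6 adapted over acute values were spread from −0.55 (lowest) through −0.08 (median) to 0.41 (highest), with 4 of 6 below 0. Their mean of −0.03 ± 0.119 (SE, n = 6) was smaller than its error (limma adjusted p = 0.966).

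VPS16 (YPL045W) codes for the subunit that Vps33 binds. The acute log ratios of its strain were −0.18, 0.045, 0.47 and −0.086, on both sides of 0, with a mean of 0.06 ± 0.129 (SE, n = 4, limma adjusted p = 0.935). After pretreatment 5 of 6 arrays were above 0, from −0.19 through a median of 0.19 to 0.79. The mean, 0.23 ± 0.119 (SE, n = 6), was the highest of the 8 strains and at percentile 95.7 of the pool, but missed the threshold (limma adjusted p = 0.544). It was 0.119 without adapted replicate 5 and 0.305 without adapted replicate 3, and passed in neither case.

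The VPS33 strain (YLR396C) stood at opposite ends of the 8 strains in the 2 array sets. Acute replicates 1 to 3 were above 0 at 0.38, 0.37 and 0.22, and replicate 4 was below it at −0.12. The mean of 0.21 ± 0.114 (SE, n = 4) was at percentile 89.4 of the pool (limma adjusted p = 0.596). On the adapted arrays 5 of 6 values were below 0, from −0.51 through −0.18 (median) to 0.18, and the mean of −0.21 ± 0.101 (SE, n = 6) was at percentile 9.9 (limma adjusted p = 0.523). Without acute replicate 4 the acute mean was 0.35, and without acute replicate 2 it was 0.133. Without adapted replicate 6 the adapted mean was −0.297, and without adapted replicate 2 it was −0.125. None of these passed the threshold.

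The 2 tags of the VPS33 strain did not carry these values equally. The second tag read 0.873, 1.06, 0.46 and −0.349 on acute replicates 1 to 4, while the first read −0.16, 0.016, −0.077 and 0.046. Taken alone, the first tag gave an acute mean of −0.05. Over the adapted arrays the second tag ran from −1.78 to 0.426 and the first from −0.306 to 0.196. The tags had the same sign on 2 of 10 arrays, with an r of −0.61 between them, so the values of this strain rest on its second tag.

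Neither HOPS-only strain departed from 0 by more than its spread. VAM6 (YDL077C) codes for the subunit also called Vps39, which binds Ypt7. Its strain had acute log ratios of 1.29, −0.03, −0.92 and −0.40, a spread (SD 0.944) at percentile 98.4 of the pool, where the median SD was 0.224. The mean of −0.014 ± 0.356 (SE, n = 4, limma adjusted p = 0.995) was 0.302 without replicate 3 and −0.5 without replicate 1. Replicate 1 was high on both tags, at 1.04 and 1.08, whereas in replicate 3 the first tag read 0.49 and the second −2.02. The same strain varied little in adapted over acute, from −0.21 through 0.07 to 0.11, with 5 of 6 arrays above 0 and a mean of 0.028 ± 0.0658 (SE, n = 6, limma adjusted p = 0.955).

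VPS41 (YDR080W) codes for the other Ypt7-binding end of HOPS, which also receives vesicles of the AP-3 route. The acute log ratios were 0.018, 0.046, −0.03 and −0.28, with a mean of −0.06 ± 0.092 (SE, n = 4, limma adjusted p = 0.914). Only replicate 4 lay away from 0, and without it the mean was 0.018. With pretreatment 3 arrays lay on each side of 0, from −0.74 through −0.02 to 0.17, and the mean was −0.10 ± 0.119 (SE, n = 6, limma adjusted p = 0.859). Without adapted replicate 4, the array at −0.74, it was 0.023.

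Of the CORVET-only strains, VPS3 (YDR495C), whose product binds Vps21, was above 0 on all 4 acute arrays, at 0.047, 0.351, 0.001 and 0.12. The mean of 0.13 ± 0.093 (SE, n = 4) did not pass the threshold (limma adjusted p = 0.747) and was 0.047 without replicate 2. The adapted over acute values were balanced around 0, from −0.18 through −0.04 to 0.21 (mean −0.03 ± 0.071, SE, n = 6, limma adjusted p = 0.958).

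VPS8 (YAL002W) codes for the other Vps21-binding end of CORVET, and its strain was read by the first tag alone. Acute replicate 1 was at −0.80, replicate 3 at −0.05, and replicates 2 and 4 at 0.24 and 0.26. The mean of −0.09 ± 0.197 (SE, n = 4, limma adjusted p = 0.941) was 0.149 without replicate 1. Adapted replicates 1 and 2 were high at 0.46 and 0.66 and the other 4 lay between −0.06 and 0.12. The mean was 0.18 ± 0.114 (SE, n = 6, limma adjusted p = 0.639).

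YPT7 (YML001W) codes for the vacuole Rab, and its strain was the only one of the 8 below 0 on every acute array. It read −0.11, −0.36, −0.16 and −0.22 on acute replicates 1 to 4, and 10.8% of all strains were likewise below 0 on all 4 arrays. The mean was −0.21 ± 0.084 (SE, n = 4), at percentile 14.0 of the pool (limma adjusted p = 0.39). It ranged from −0.274 to −0.15 when each array was left out. Adapted replicates 1 to 3 were below 0 (−0.26, −0.018 and −0.057) and replicates 4 to 6 above it (0.19, 0.42 and 0.55), with a mean of 0.14 ± 0.112 (SE, n = 6, limma adjusted p = 0.754). This strain too was read by its first tag alone.

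The adaptive contrast of the 8 strains ran from −0.29 ± 0.189 (SE) in VPS16 to 0.16 ± 0.170 (SE) in VPS41 over 10 arrays, with a limma adjusted p of 0.999 for both. It uses the same arrays as the other comparisons and is no separate measurement. In VAM6 it depended on acute replicate 1: it was −0.014 with all arrays and 0.472 without that one, still short of the threshold. YPT7, with 0.07 ± 0.157 (SE), was the other strain above 0.

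**Figure D2:**
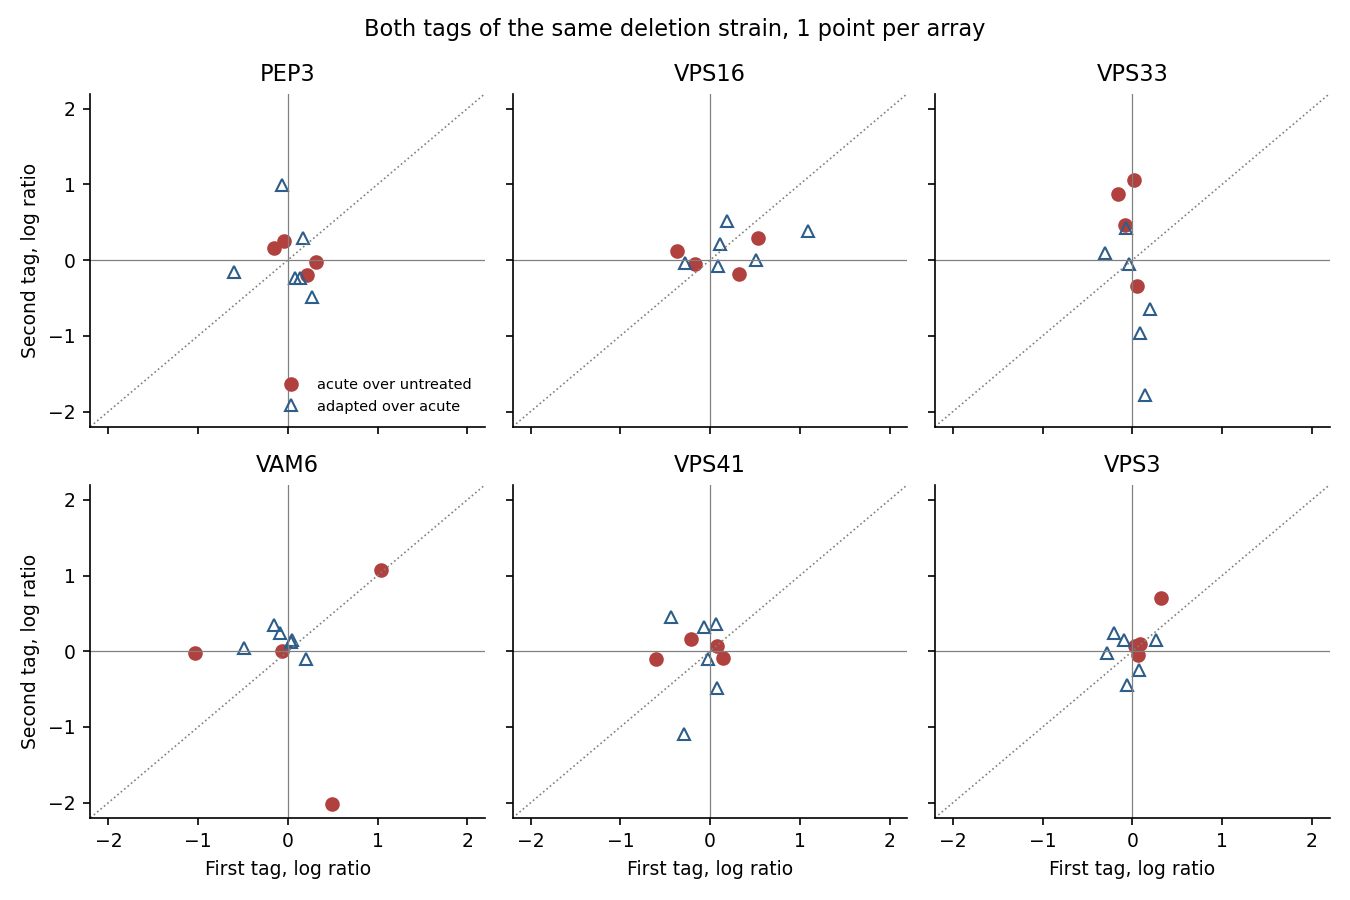
Log ratio of the first tag (horizontal) and the second tag (vertical) of the 6 strains read by both tags, 1 point per array, before quantile normalization. Circles are acute over untreated, triangles adapted over acute, and the dotted line marks equal values. The VPS33 points run along the vertical axis, and the lowest VAM6 point is acute replicate 3, with tags at 0.49 and −2.02.

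How well the tags of a strain agreed limits all of these values. Over the 4492 strains with both tags the r between tags was 0.057 to 0.224 per array. The median size of their difference was 0.291, and the median strain had the same sign on 5 of 10 arrays. Among the 6 tethering strains read by both tags, VPS16 had the same sign on 7 of 10 arrays (r = 0.413) and VPS3 on 6 (r = 0.405). VPS41 and VAM6 had 5 each (r = 0.045 and 0.012), and PEP3 and VPS33 had 2 each (r = −0.196 and −0.61). These r values describe 10 arrays that share the tag and the hybridisation, and carry no test.

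The shared core was set against the subunits particular to each complex by averaging the strains of a role on each array. The core averaged 0.105, 0.14, 0.233 and −0.006 on acute replicates 1 to 4, which gave 0.118 ± 0.0989 (SD, n = 4). HOPS-only strains averaged 0.654, 0.009, −0.477 and −0.338, or −0.0378 ± 0.505 (SD, n = 4). CORVET-only strains averaged −0.377, 0.295, −0.026 and 0.188, or 0.0199 ± 0.297 (SD, n = 4). The 3 roles overlapped. The core mean varied least from array to array in this set, but it averages 3 strains against 2 in each other role. Of the HOPS-only strains, VAM6 had an acute SD of 0.944 and VPS41 one of 0.149.

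The acute difference of core minus HOPS-only was 0.156 ± 0.528 (SD, n = 4), above 0 on 3 of 4 arrays, and ran from −0.029 without replicate 3 to 0.423 without replicate 1. Core minus CORVET-only was 0.0981 ± 0.328 (SD, n = 4) with 2 arrays on each side of 0, and HOPS-only minus CORVET-only was −0.0576 ± 0.733 (SD, n = 4). In adapted over acute the 3 role means lay closer still, at −0.00253 ± 0.0944 for the core, −0.0363 ± 0.179 for HOPS-only and 0.0755 ± 0.133 for CORVET-only (SD, n = 6). The differences there were 0.0338 ± 0.192, −0.078 ± 0.163 and −0.112 ± 0.262 (SD, n = 6) for core minus HOPS-only, core minus CORVET-only and HOPS-only minus CORVET-only. In that order they were below 0 on 3, 3 and 4 of 6 arrays. All 6 differences of both array sets were smaller than their SD over arrays. That SD is the spread of single arrays, which is wider than the error of a mean. The differences are descriptions, without a test.

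**Figure D3:**
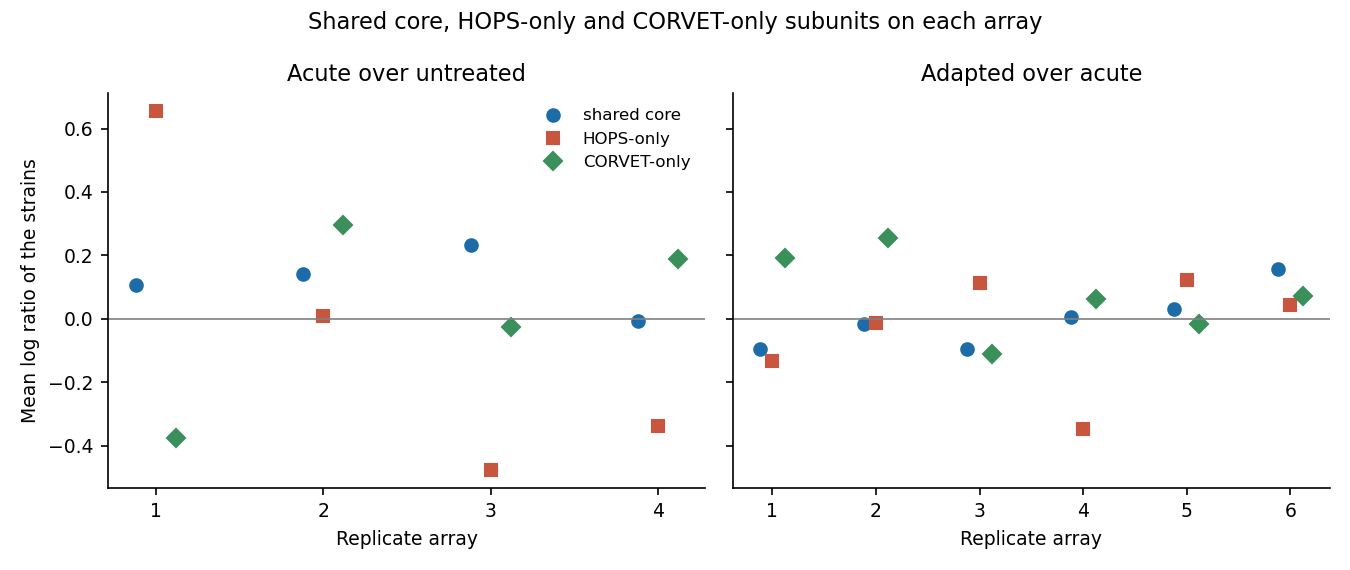
Mean log ratio of the core strains (PEP3, VPS16 and VPS33), the HOPS-only strains (VAM6 and VPS41) and the CORVET-only strains (VPS3 and VPS8) on each replicate array, for acute over untreated (left) and adapted over acute (right). The HOPS-only means run from −0.477 to 0.654 on the acute arrays, and the order of the roles changes from array to array.

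Subunits that hold corresponding places were compared strain against strain, with an exact two-sided sign-flip permutation test over arrays and 8 tests in all. VPS41 minus VPS8 was 0.0287 ± 0.576 (SD, n = 4, exact p = 0.875) in the acute comparison and −0.281 ± 0.499 (SD, n = 6, exact p = 0.25) in adapted over acute. The adapted interval of the mean ran from −0.804 to 0.243. VAM6 minus VPS3 was −0.144 ± 0.954 (SD, n = 4, exact p = 0.75) and 0.0572 ± 0.168 (SD, n = 6, exact p = 0.46875), with intervals from −1.66 to 1.37 and from −0.12 to 0.234. The last of these is the narrowest of the 8.

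Within each complex the ends did not separate either. VAM6 minus VPS41 was 0.047 ± 0.899 (SD, n = 4, exact p = 1) and 0.129 ± 0.345 (SD, n = 6, exact p = 0.53125). VPS3 minus VPS8 was 0.22 ± 0.432 (SD, n = 4, exact p = 0.5) and −0.209 ± 0.403 (SD, n = 6, exact p = 0.3125). The adjusted p was 0.85 or 1 in all 8 tests, and these p-values, like those of the single strains, belong to strains chosen with results of these data known. With 4 arrays the smallest p of the exact test is 1 in 8, so it cannot reach 0.05, and with 6 arrays it is 0.03125.

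The profiles of the strains over the 10 arrays showed no common course. The r of the 28 pairs of strains ran from −0.782 (PEP3 and VPS16) to 0.778 (VPS33 and VPS3), with a median of 0.007 and 15 pairs above 0. Both strains of the lowest pair lack core subunits. The profiles nearest to the mean of the 3 core strains were those of RPS26B (r = 0.882), which codes for a ribosomal protein, YJR056C (r = 0.88) and PRK1 (r = 0.855), a kinase of the actin cytoskeleton, among 4625 strains. VPS33, which is part of that mean, had r = 0.824, VPS16 0.387 and PEP3 −0.222. These r are descriptions over 10 arrays of a common pool.

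Other genes of the vacuole and endosome were read by lists written from general knowledge. Of the 5 Ypt7 regulators, 0 were called in each comparison, with a median acute log ratio of −0.138. The CCZ1 and MON1 strains lack the subunits of the exchange factor that activates Ypt7, and they are named for the lowest acute p of the list. Both were below 0 on 4 of 4 acute arrays, as were 10.8% of all strains, and of the 5 strains of the list 3 had acute means below 0. Their means were −0.38 ± 0.112 (SE, n = 4, limma adjusted p = 0.24) and −0.23 ± 0.112 (SE, n = 4, limma adjusted p = 0.541), beside −0.21 for YPT7 itself. In adapted over acute they were 0.07 and 0.16, beside 0.14 for YPT7.

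On the CORVET side, 0 of 7 strains for endosomal Rabs and their regulators were called, with medians of −0.00796 (acute) and −0.00598 (adapted). The strain without VPS9, the exchange factor of Vps21, had an acute mean of −0.16 and that without the Rab YPT53 −0.19, with limma adjusted p-values of 0.76 and 0.657. These 2 are named for the lowest acute p of the list, in which 4 of 7 acute means were below 0. The strain without VPS21 itself had an acute mean of 0.05. Of the 7 SNAREs and SNARE regulators 0 were called, with a median of −0.0269 acute. VPS45, a Sec1/Munc18-type protein of the endosome like Vps33 in kind, gave 0.20 and the SNARE SYN8 −0.12.

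The 4 AP-3 strains, which lack the adaptor that sends cargo straight to the vacuole and meets Vps41 there, were all below 0 in the acute means (median −0.158) and all above 0 in adapted over acute (median 0.167). Of all strains, 54.7% were below 0 in the acute means and 45.4% above 0 in adapted over acute. None was called. APM3 was below 0 on 4 of 4 acute arrays (mean −0.21 ± 0.084, SE, n = 4, limma adjusted p = 0.394) and above 0 on 6 of 6 adapted arrays (mean 0.15). APL5 had −0.16 and 0.28, also with 4 of 4 and 6 of 6 arrays on those sides. In the pool 10.8% of strains were below 0 on every acute array and 3.42% above 0 on every adapted array. APM3 and APL5 are named for the lowest acute p of the list. Both comparisons hold an acute portion, on opposite sides of the ratio, though in different cultures.

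The 9 strains for phosphatidylinositol kinases and their regulators had the highest acute median of these lists, 0.126, with 0 called. Of the 9 acute means, 4 were below 0, and VPS34 and FAB1 are named for the lowest acute p of the list. VPS34, the phosphatidylinositol 3-kinase whose lipid HOPS binds, read 0.53, 0.14, 1.85 and 0.90, with a mean of 0.86 ± 0.279 (SE, n = 4, limma adjusted p = 0.289). FAB1, the kinase that makes phosphatidylinositol 3,5-bisphosphate, had 0.31 and was above 0 on 4 of 4 arrays, as were 9.19% of all strains (limma adjusted p = 0.314). Of the 8 retromer and sorting nexin strains, 0 were called (median −0.0999), and 7 had acute means below 0. VPS5 and PEP8, also named for the lowest acute p of their list, had acute means of −0.17 and −0.21.

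Calls appeared in the lists for ESCRT, which sorts membrane proteins into endosomal vesicles, and the vacuolar ATPase, which acidifies the vacuole. Of 20 ESCRT strains, 3 were called below 0 in the acute comparison and 5 above 0 in adapted over acute. Over all strains 2.66% and 1.25% were called in those directions. The medians over the list were −0.0352 acute and 0.0648 adapted, with 12 acute means and 6 adapted means below 0. VPS36, STP22 and VPS20 had acute means of −0.57, −0.65 and −0.70 and adapted means of 0.63, 0.61 and 0.54, with limma adjusted p-values from 0.0761 to 0.0882. Of 19 measured vacuolar ATPase strains (21 listed), 3 were called below 0 in the acute comparison and 2 above 0 in adapted over acute. The medians were −0.124 acute and 0.0551 adapted, with 16 acute means and 7 adapted means below 0. PKR1 and VPH2, whose products assemble the enzyme, had −0.70 and −0.67, and VMA3, a subunit of its membrane ring, −0.66 (limma adjusted p = 0.078, 0.127 and 0.111). In the adaptive contrast 0 strains of either list were called (1 vacuolar ATPase strain above 0 with the replicate number as a block), and the difference between these lists and the tethering strains was not tested.

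The counts for these lists moved with single arrays, tags and the estimate of the spread. For the first tag set alone, 1 ESCRT and 1 vacuolar ATPase strain were called below 0 in the acute comparison. With that set 2 ESCRT strains were called above 0 in adapted over acute. The acute vacuolar ATPase count was 1 without acute replicate 2 and at most 2 without any other acute array. With the second tag set alone, or without moderation of the spread, it was also 1, and without moderation 3 ESCRT strains were called above 0 in adapted over acute. With 1 spread shared by all strains, 5 ESCRT strains were called below 0 in the acute comparison and 4 vacuolar ATPase strains above 0 in adapted over acute. The phosphatidylinositol list then had 1 call above 0 in the acute comparison and 1 below 0 in the contrast. With the signs as deposited, which undo the turning of spots above 5400, none of the ESCRT and vacuolar ATPase calls remained in their direction. There, 1 vacuolar ATPase strain was called below 0 in adapted over acute, and the phosphatidylinositol list had 1 acute call above 0. The other 6 lists had 0 calls whichever array was left out.

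**Figure D4:**
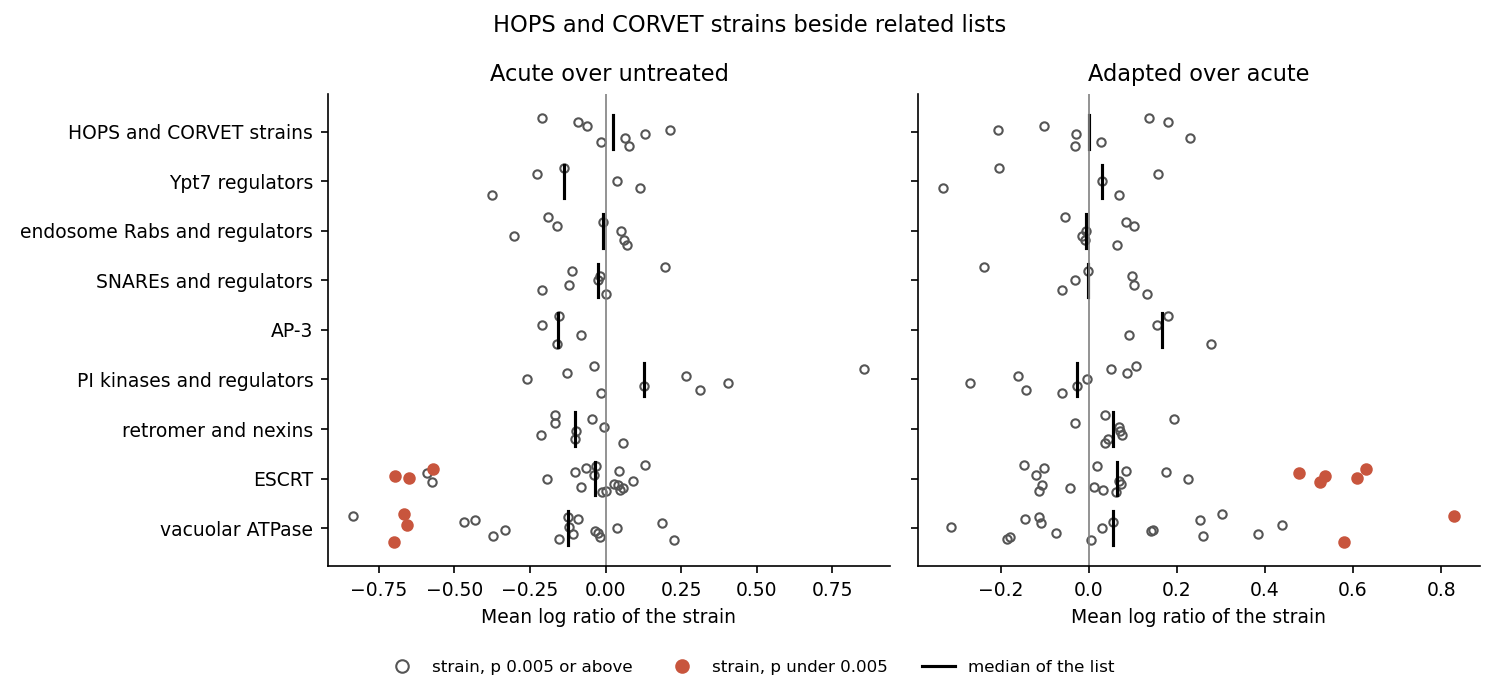
Mean log ratio of every measured strain in the HOPS and CORVET group and in 8 lists of vacuole and endosome genes, for acute over untreated (left) and adapted over acute (right). Open circles are strains at p 0.005 or above, filled circles strains below it, and vertical bars list medians. Filled circles occur only for ESCRT and the vacuolar ATPase, with 3 and 3 in the acute panel and 5 and 2 in the adapted panel.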

How the data were processed

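Barcode tags of pooled haploid deletion strains were read on 10 arrays with 2 colours. The table holds log ratios per spot, and the authors had corrected them by median and loess with the hoptag package. The deposited log ratio is of unstated base and was not converted to another scale. Signal over background is not known from these ratios, and the precision is limited by how many arrays there are. Values were present for 16850 of 22575 spots, on every array, and absent throughout for 5725. The platform annotation named 1 gene for 18794 spots and several for 0. Of 4625 measured strains, 4147 had a name and 478 none. Column medians ran from −0.0171 to 0.0115.

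In the first tag set, the 3430 replicate spots of main spots up to 5400 were the exact negative of their main spot (tolerance 1e-09). The 345 of main spots above 5400 were equal to theirs. In the second tag set the 3330 and 345 replicate spots were all equal to their main spot, so they do not show the direction of that set. Spots above 5400, which include the whole second tag set, were turned. Tags were averaged per strain and array, with both tags for 4492 strains and the first alone for 133, and the arrays of a comparison were quantile normalized. Tests were two-sided, with limma 3.58.1 in R 4.3.3 (lmFit and eBayes) over all strains, called at an unadjusted p under 0.005, the threshold of the study's methods, with Benjamini-Hochberg adjustment beside it. The adaptive contrast was the mean of acute over adapted minus the mean of acute over untreated. Pairs of strains were compared with exact sign-flip tests, also in R 4.3.3. The strain values were prepared in Python 3.11.15. The script was tested on simulated data.

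The members and the gene lists were chosen with earlier results of these data known. Named were all measured members, per list the 2 strains with the lowest acute p (3 where at least 3 passed), the 3 strains nearest the core profile, and YAP1 and SKN7. Alternatives were no quantile normalization, each tag set alone, equal weight for every spot, strains with both tags only, signs as deposited, an unmoderated and a shared spread, a replicate block and leaving out each array. Replicate cultures came from separate aliquots of 1 frozen pool.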

Additional observations from a re-analysis of the deposited data

Results flagged for a closer look

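In 2 of the 16 sets of replicate arrays tested (8 strains in both array sets), 1 array stood apart from the others by Dixon's 95% criterion, which by chance marks about 1 set in 20. The VAM6 strain had −0.21 on adapted replicate 1, while its nearest array was at 0.04. The gap was 0.789 of the range of its 6 arrays, and without that array the mean was 0.0816. The VPS41 strain had −0.74 on adapted replicate 4, with the nearest array at −0.13 and a gap of 0.675 of the range. Without it the mean turned from −0.101 to 0.0232.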

How the results depend on the processing

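The count of HOPS and CORVET strains called was 0 in each of 45 counts made under the alternatives in the 3 comparisons. Signs were less stable: under the alternatives that can move a mean, 224 of 276 values of single strains kept their sign and 52 changed it, as did 9 of 60 differences between strains. Of the 52 changes, 22 came with the signs as deposited, a setting that inverts spots by construction. No value of a single strain passed the threshold, which the exact tests of the differences could not reach. The cause of the other changes was not tested, except where fewer tags or arrays were used by construction.

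Without quantile normalization, PEP3 adapted was 0.0118, the contrasts of VPS33 and VAM6 0.01 and 0.0363, and VPS41 minus VPS8 acute −0.0648. With the first tag set alone, VPS33 acute was −0.0483 and its contrast 0.0536, VAM6 acute 0.128 and adapted −0.0761, VPS41 minus VPS8 acute −0.0257, and VAM6 minus VPS3 0.000235 acute and −0.027 adapted. With the second alone, VAM6 minus VPS41 acute was −0.0709 and core minus HOPS-only adapted −0.177. With strains of both tags only, VAM6 acute was 0.00805.

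The signs as deposited undo the turning of spots above 5400. All second-tag spots, and first-tag spots above 5400, are then inverted by construction, also for VPS8 and YPT7, read by 1 tag. With these signs 22 values turned. The acute means of PEP3, VPS16, VPS33, VAM6, VPS41, VPS3, VPS8 and YPT7 were −0.026, −0.102, −0.36, 0.229, 0.0483, −0.106, 0.0222 and 0.149. The adapted means of VPS16, VPS33, VAM6, VPS41, VPS3, VPS8 and YPT7 were −0.29, 0.226, −0.122, 0.0383, 0.0239, −0.0897 and −0.101. The contrasts of PEP3, VPS16, VPS33, VPS41, VPS3, VPS8 and YPT7 were 0.0489, 0.392, 0.133, −0.0866, 0.0824, 0.0675 and −0.0476.

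Replicate numbers gave no steady pairing of the arrays of both sets. For each array the deviations of all strains from their mean over the set were taken, with the adapted sign turned. Between same-numbered arrays these deviations had r of 0.339, −0.265, 0.17 and 0.236. Among adapted replicates 1 to 4, the nearest to acute replicates 1 to 4 were replicates 2, 4, 3 and 3. With the replicate block the adaptive contrast called 0 of the 8 HOPS and CORVET strains, as without it, against 6 strains of the pool below 0 and 65 above 0. It called 1 vacuolar ATPase strain above 0, and the contrasts of VPS33 and VAM6 were 0.108 and 0.0169.

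Leaving out each array, acute means ran from −0.0762 to 0.144 (VPS16), −0.5 to 0.302 (VAM6), −0.1 to 0.0183 (VPS41) and −0.198 to 0.149 (VPS8), and adapted means from −0.127 to 0.0738 (PEP3), −0.162 to 0.0232 (VPS41) and −0.0775 to 0.00399 (VPS3). Contrasts ran from −0.152 to 0.0495 (PEP3), −0.144 to 0.0842 (VPS33), −0.33 to 0.472 (VAM6), −0.329 to 0.0184 (VPS8) and −0.02 to 0.156 (YPT7). Acute differences ran from −0.249 to 0.182 (VPS41 minus VPS8), −0.66 to 0.122 (VAM6 minus VPS3) and −0.4 to 0.38 (VAM6 minus VPS41).

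Over all strains, calls below and above 0 numbered 123 and 44 (acute), 71 and 58 (adapted) and 8 and 71 (contrast). With the first tag set alone they were 56 and 20, 32 and 33, and 2 and 42. Without moderation they were 49 and 21, 44 and 58, and 5 and 43, and with a shared spread 83 acute calls above 0, 136 adapted calls below 0 and 116 contrast calls above 0 were made. With the signs as deposited they were 23 and 33, 23 and 32, and 13 and 10. With the second tag set alone 45 strains were above 0 in the contrast.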
